A study of Mus musculus with 2 samples.

Results

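The flow-responsive Klf2 programme was followed here through 8 genes, Klf2, Klf4, Klf6, Nos3, Thbd, Edn1, Piezo1 and S1pr1, of the 21951 genes and transgene sequences in a mouse scRNAseq count matrix. The genes were taken by name, with earlier results of these data known, and all 8 had at least 200 unique molecular identifiers (UMIs, counts of captured transcripts) over the groups compared. Their levels were read in 1988 endothelial cells (ECs) with 1 hashtag, of 7704 barcodes that passed the quality limits and carried Cdh5, the VE-cadherin gene that marks ECs. Of the other Cdh5 barcodes, 5585 had no hashtag above its minimum and 131 had several and were left out of the groups as doublets.

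Blood flowing over an EC drags on its surface, and this shear stress is sensed by ion channels, junctional complexes and receptors. A kinase cascade that ends in ERK5 and MEF2 transcription factors then raises KLF2 and KLF4, a pair of zinc finger factors that keep the endothelium quiescent, anticoagulant and vasodilatory. KLF2 is known for raising Nos3 and Thbd and for lowering Edn1. The same KLF genes belong to the immediate response of cells to enzymatic dissociation, so the levels below are given beside the immediate early genes.

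All cells came from a single 10x Genomics library of heart and liver cells from C57BL/6 pups, in which 6 antibody hashtags marked the control cells, the iSuRe-Cre cells and the iSuRe-HadCre cells of each tissue. iSuRe-Cre and iSuRe-HadCre are alleles that, once recombined by tamoxifen-activated CreERT2, express a membrane Tomato reporter and an active Cre, which in iSuRe-HadCre is expressed for a limited time. Both were combined with Cdh5-CreERT2, whose expression is driven by the endothelial Cdh5 promoter, and pups received 40 mg/kg of 4-hydroxytamoxifen at postnatal day 3 and were processed 3 days later, at P6-P7. The labels describe the sorted cells as CD31+ and MbTomato+, while the series description names sorting by the presence or absence of Tomato. The sample label gives a single genotype, Cdh5-CreERT2 with iHadSuRe-Cre, for the whole library, names no floxed allele although the study's text describes Notch1 loss in ECs, and does not say which genotype or reporter the control cells had. No source used here tells how many pups were pooled into a hashtag. Each group is therefore 1 sample with no replicate, no test was made, and every interval covers counting error only and no spread between animals. A hashtag counted as positive at 25 UMIs or more, or at 140 for the iSuRe-Cre liver hashtag.

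The heart groups held 254 (control), 435 (iSuRe-Cre) and 311 (iSuRe-HadCre) cells and the liver groups 54, 858 and 76 cells. Levels are CPM, the summed UMIs of a gene in a group per 1000000 UMIs of that group, and the totals behind them were 3030031, 8303637 and 3102952 UMIs in heart and 624048, 9341120 and 682984 UMIs in liver, in the same order. Cells of iSuRe-Cre heart were the deepest, with a median of 16379 UMIs per cell against 9100 in control and 7322 in iSuRe-HadCre heart. In liver the medians were 7980, 8765 and 7383.5 UMIs.

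Notch1 was read first, since the study's text, though not the labels, describes its loss in ECs with the iSuRe alleles. It was at 138 CPM in control heart, against 12.6 CPM in iSuRe-Cre heart and 23.2 CPM in iSuRe-HadCre heart. The liver levels were 160.2 CPM in control, 21.4 CPM in iSuRe-Cre and 30.7 CPM in iSuRe-HadCre. Notch1 was therefore lower in all 4 groups with an iSuRe allele than in the control of the same tissue, and close to its 19.5 CPM in free RNA (droplets of 10 to 100 UMIs). In every comparison with control below, the iSuRe allele and the low Notch1 went together and cannot be told apart. The reporter was lowest in the groups labelled iSuRe-Cre. WPRE, a sequence of the transgene's transcript, was at 562 CPM in the control, 63.5 CPM in the iSuRe-Cre and 1055 CPM in the iSuRe-HadCre heart, and at 396, 105 and 1070.3 CPM in liver. Free RNA held WPRE at 160.4 CPM, above both cell groups labelled iSuRe-Cre, and Tomato itself was at 25.5 CPM in iSuRe-Cre heart and 33.8 CPM in iSuRe-Cre liver against 30.3 CPM in free RNA. Summed over each group labelled iSuRe-Cre, reporter RNA was thus near or below its share of free RNA, although the labels describe MbTomato+ cells. Such a share is not the amount of free RNA in a cell. A normalized WPRE level above 0.5, which the paper required of its cells, was reached by 145 of 435 iSuRe-Cre heart cells. In liver 379 of 858 reached it, against 292 of 311 iSuRe-HadCre heart cells and 66 of 76 in liver. The paper describes the iSuRe-HadCre reporter as several-fold brighter. The cause of the low sums was not tested. In the groups labelled iSuRe-Cre, the Cre sequence was above its 7.59 CPM in free RNA, at 30.7 CPM in heart and 26.7 CPM in liver. Control had 29 CPM of Cre in heart and 9.61 CPM in liver, and iSuRe-HadCre had 36.7 and 26.4 CPM.

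All 9 pan-endothelial markers were detected in every group, with summed levels of 3628 to 4486 CPM. The marker genes of liver sinusoidal ECs went against the tissue label in the control. Stab2, a scavenger receptor of sinusoidal ECs, was at 30.4 CPM in control liver against 1446 CPM in iSuRe-Cre and 387 CPM in iSuRe-HadCre liver. By a rule that put a cell in a class when at least 3 genes of 1 marker list were detected, and more than of any other list, 0 of 54 control liver cells were sinusoidal, which allows a share of up to 5.56% (3 counts of 54), against 479 of 858 iSuRe-Cre cells (55.8%) and 8 of 76 iSuRe-HadCre cells (10.5%). In heart 82.7%, 80.2% and 77.5% of cells were in the capillary class. The arterial class was smaller in iSuRe-Cre heart, with 9.45% of control, 2.76% of iSuRe-Cre and 9.65% of iSuRe-HadCre heart cells. The 7 arterial marker genes summed to 714, 322 and 736 CPM in heart and to 758, 246 and 736 CPM in liver, so they were lowest in the same groups as the KLF genes, and their part in the results below was not tested. The liver groups thus held different kinds of EC, and their summed levels are given below together with levels inside each class.

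The Klf2 gene lies on chromosome 8 (GRCm38, 72319033 to 72321656, plus strand, protein coding) and Klf4 on chromosome 4 (55527143 to 55532466, minus strand, protein coding). The stretch upstream of the RefSeq start of Klf2 is shown because MEF2 factors act on the flow response through this promoter, and the same stretch of Klf4 is shown beside it. Both run from 150 bases before the RefSeq start to the base before it (GRCm38.p6, chr8:72318912-72319061 on the plus strand and chr4:55532476-55532625 on the minus strand), and capitals mark matches, on either strand, to the MEF2 motif (CTA and TAG with any 4 bases between them) or to CACCC, the core letters that KLF proteins bind.
Klf2: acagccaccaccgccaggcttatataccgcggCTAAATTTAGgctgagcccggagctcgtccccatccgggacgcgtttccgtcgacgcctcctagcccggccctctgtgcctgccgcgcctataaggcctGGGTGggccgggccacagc
Klf4: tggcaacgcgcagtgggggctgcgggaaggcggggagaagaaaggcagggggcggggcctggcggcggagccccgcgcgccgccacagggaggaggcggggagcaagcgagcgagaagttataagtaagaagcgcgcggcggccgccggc
The Klf2 stretch held the palindromic MEF2 match CTAAATTTAG at 118 bases before the start and 1 CACCC match on the minus strand. The RefSeq start lies inside the GENCODE gene given above, so the end of the Klf2 stretch, with the CACCC match, is within that gene and the MEF2 match is upstream of it. The Klf4 window held neither. The MEF2 letters occur in 3.69% of the 32851 RefSeq windows of 300 bases around a gene start, and CACCC occurs in 57.5% of them. RefSeq windows were matched for 5 of the 8 genes, Klf2, Klf4, Klf6, Edn1 and Piezo1, and among these the MEF2 letters were in the Klf2 window only, CACCC was also in those of Edn1 and Piezo1, and neither was in that of Klf6. A match is a description of letters and not of binding.

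Klf2 was highest in control heart, at 1277 CPM (95% interval 1237 to 1317). iSuRe-Cre heart had 517 CPM (502 to 533) and iSuRe-HadCre heart 933 CPM (900 to 968). The liver values were 807 CPM (741 to 877) in iSuRe-HadCre, 689 CPM (625 to 757) in control and 458 CPM (444 to 472) in iSuRe-Cre. In both tissues iSuRe-Cre was the lowest group, and of the neighbours in the order of all 6 groups only iSuRe-HadCre liver and control liver had overlapping intervals. The highest and the lowest group differed 2.79-fold. The median cell told the same order in heart, with 1017 CPM in control, 649 in iSuRe-HadCre and 323 in iSuRe-Cre, but in liver the median control cell (274 CPM) lay close to the median iSuRe-Cre cell (283 CPM), below the median iSuRe-HadCre cell (469 CPM).

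Klf4, the partner of Klf2 in the flow response, followed another order. It was highest in iSuRe-HadCre heart at 473 CPM (449 to 498), with 367 CPM (346 to 390) in control and 159 CPM (151 to 168) in iSuRe-Cre heart. The liver values were 376 CPM (332 to 425) in iSuRe-HadCre, 252 CPM (214 to 294) in control and 114 CPM (107 to 121) in iSuRe-Cre. Klf4 was thus above control in iSuRe-HadCre and below it in iSuRe-Cre in both tissues, although without the Cdh5 criterion iSuRe-HadCre liver was at 0.983 times control. Its range over the groups, 4.15-fold, was wider than that of Klf2. Klf6, a widely expressed family member that answers injury signals, was lower in liver than in heart in control and in both iSuRe groups. Klf6 was at 211 CPM in iSuRe-Cre heart, 345 CPM in iSuRe-HadCre heart and 346 CPM in control heart. Its liver levels were 131, 180.1 and 181 CPM. The control and iSuRe-HadCre levels overlapped within each tissue, and iSuRe-Cre lay below both.

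**Figure D1:**
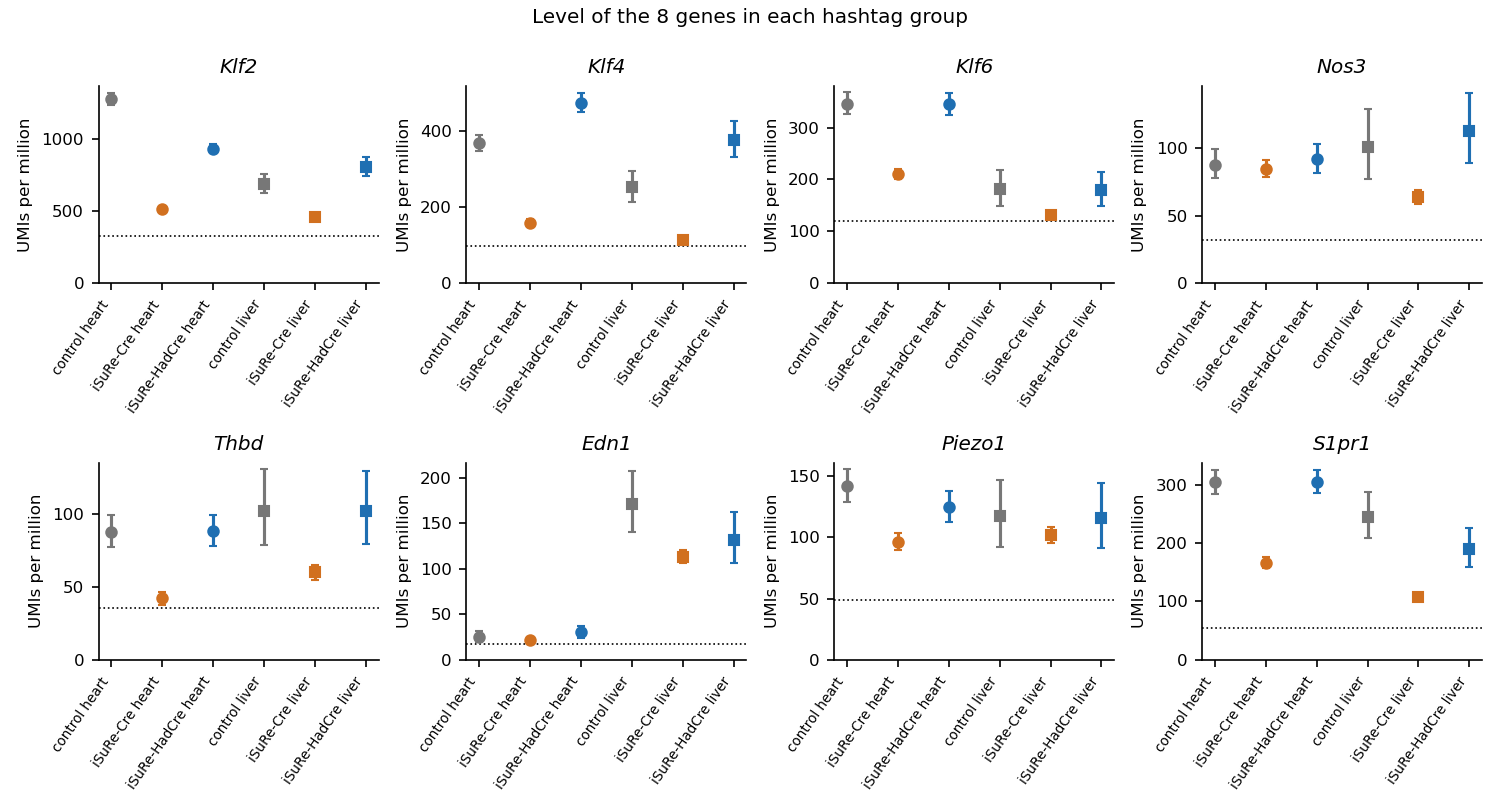
Level of each of the 8 genes (y axis, CPM, from 0) in the 6 hashtag groups (x axis), circles for heart and squares for liver, with exact 95% Poisson intervals that cover counting error only. The dotted line is the gene's share of free RNA, and the orange iSuRe-Cre points are the lowest of their tissue in every panel.

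The first comparison asked how the genes stood in iSuRe-Cre heart ECs relative to control heart ECs. Klf2 was at 0.405 times its control level (95% interval 0.388 to 0.423), Klf4 at 0.433 (0.4 to 0.469), Thbd at 0.48 (0.408 to 0.565), S1pr1 at 0.548 (0.503 to 0.596) and Klf6 at 0.608 (0.563 to 0.657). These 5 of the 8 genes were at least 1.5-fold lower and 0 were at least 1.5-fold higher, where 9.19% of the 9742 genes compared were that much lower and 7.76% that much higher. Among the 4689 genes with at least 1000 UMIs over the groups, a depth that all 8 genes had, these shares were 7.38% and 5.31%. Only 1.11% of all genes had a smaller ratio than Klf2. Piezo1 had a ratio of 0.68 (0.604 to 0.766), and the intervals of Nos3 (0.961, 0.833 to 1.11) and Edn1 (0.848, 0.646 to 1.12) held 1. The median ratio was 0.578 over the 8 genes and 0.958 over all genes compared. Since the iSuRe-Cre heart cells were deeper, the comparison was repeated in cells of 5000 to 15000 UMIs, where Klf2 was at 0.519 times control.

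In iSuRe-HadCre heart, 0 of the 8 genes were at least 1.5-fold higher and 0 at least 1.5-fold lower than in control, where 11.7% and 2.66% of genes were, or 6.59% and 1.41% of genes with at least 1000 UMIs. Klf2 was nevertheless below control, at 0.731 times its level (95% interval 0.696 to 0.767), a ratio under which 4.68% of all genes fell. Klf4 was above control at 1.29 times (1.19 to 1.39), a ratio under which 75.9% of all genes fell. The median ratio over all genes compared was 1.09. The pair of factors that usually rise together under flow therefore stood on opposite sides of control in this group. The Klf2 ratio was below 1 under all 14 alternatives, between 0.599 and 0.891. The other 6 genes had ratios of 0.879 to 1.19 and intervals that held 1. Both comparisons share the control heart cells, and so are not independent of each other.

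Among the genes that KLF2 is known to act on, Nos3, the endothelial nitric oxide synthase, was nearly level in heart, with 84.7 CPM in iSuRe-Cre, 88.1 CPM in control and 91.8 CPM in iSuRe-HadCre. Thbd, the thrombomodulin that turns thrombin towards anticoagulation, was at 88.1 CPM in control and 88.6 CPM in iSuRe-HadCre heart but at 42.3 CPM in iSuRe-Cre heart. Edn1, the vasoconstrictor endothelin, was low in heart, at 21.6 CPM in iSuRe-Cre, 25.4 CPM in control and 30.3 CPM in iSuRe-HadCre. Of these targets, Thbd was the one at least 1.5-fold lower in iSuRe-Cre heart, as Klf2 was. Piezo1, the stretch-activated channel that admits calcium under shear, was at 142 CPM (129 to 156) in control, 124 CPM (112 to 137) in iSuRe-HadCre and 96.2 CPM (89.7 to 103) in iSuRe-Cre heart. S1pr1, the receptor for sphingosine-1-phosphate that stabilizes junctions, was at 304 CPM in control and again 304 CPM in iSuRe-HadCre heart, and at 166 CPM (158 to 175) in iSuRe-Cre heart.

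**Figure D2:**
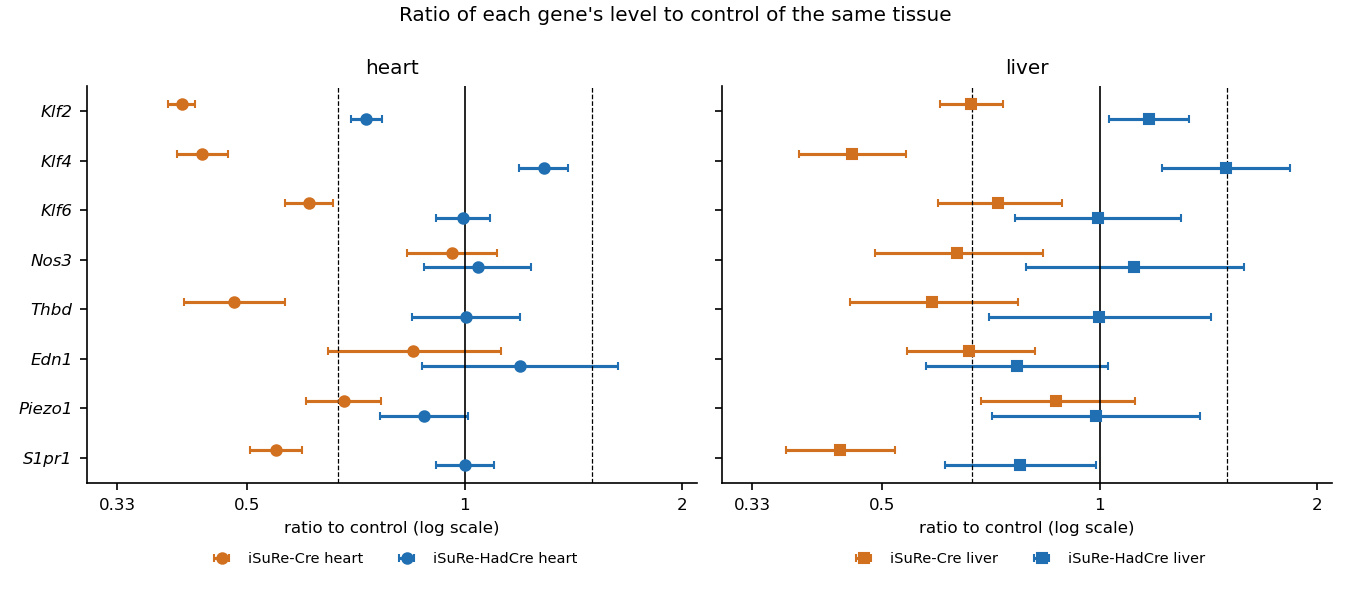
Ratio of each gene's level (rows) to the control of the same tissue (x axis, log scale), with exact 95% intervals for counting error, circles for heart and squares for liver. Solid and dashed lines mark a ratio of 1 and 1.5-fold in either direction. Klf2 in iSuRe-Cre heart sits at 0.405, the lowest of all points, and S1pr1 in iSuRe-HadCre heart sits at 1.0009.

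In iSuRe-Cre liver, 6 of the 8 genes were at least 1.5-fold lower than in control liver and 0 at least 1.5-fold higher, where 15.6% and 12.8% of genes were (10.8% and 8.53% at 1000 UMIs or more). S1pr1 was at 0.437 times control (95% interval 0.368 to 0.521), Klf4 at 0.453 (0.383 to 0.539), Thbd at 0.586 (0.452 to 0.771) and Nos3 at 0.634 (0.489 to 0.836). Edn1 was at 0.66 (0.541 to 0.813) and Klf2 at 0.664 (0.602 to 0.735), both just past the limit, Klf6 was at 0.724 (0.597 to 0.886), and the interval of Piezo1 (0.87, 0.685 to 1.12) held 1. Edn1 turned to 1.27 with HTODemux hashtag calls and to 1.31 outside the sinusoidal class, and Klf6 to 1.34 with a hashtag minimum of 50 UMIs. The Klf2 ratio rested on few control cells. The 5 of 54 control liver cells with 6000 or more detected genes held 32.5% of the group's UMIs and 53.3% of its Klf2 UMIs, at 1130 CPM against 477 CPM in the rest, and without cells of that many genes the Klf2 ratio was 0.971. It was also near 1, at 0.948, when sinusoidal class cells were left out of the liver groups, which left 379 iSuRe-Cre cells and 1 of the 8 genes past 1.5-fold lower. The Klf4 and S1pr1 ratios were below 1 under all 13 alternatives that gave a value in liver, with ranges of 0.423 to 0.715 and 0.348 to 0.581. Nos3 and Thbd were also below 1 in all 13, with ranges of 0.589 to 0.989 and 0.522 to 0.802. They were past the 1.5-fold limit in only 6 and 8 of these alternatives.

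In iSuRe-HadCre liver, 0 genes were at least 1.5-fold higher and 0 at least 1.5-fold lower than in control liver, where 13.5% and 13.3% of genes were, or 6.97% and 5.82% of those with at least 1000 UMIs. Klf4 came closest to the limit, at 1.4957 times control (95% interval 1.22 to 1.84), and Klf2 was at 1.17 (1.03 to 1.33). S1pr1 was below control at 0.776 (0.61 to 0.987), and the other 5 genes had ratios of 0.769 to 1.12 and intervals that held 1. The interval of Edn1 (0.769, 0.574 to 1.03) was wide, with 76 and 54 cells. The Klf2 ratio ran from 0.963 to 1.84 over the 13 alternatives, so its side of 1 was not fixed. Klf4 ran from 0.983, without the Cdh5 criterion, to 2.35 and was at least 1.5-fold higher in 7 of these alternatives, so its side of 1 was not fixed either. Over the same alternatives the number of genes past the limit ran from 0 to 4 on the higher and from 0 to 3 on the lower side.

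The alleles were then set against each other within a tissue, a comparison that does not use the control cells. In heart, 5 of the 8 genes stood at least 1.5-fold above iSuRe-Cre ECs in the iSuRe-HadCre ECs and 0 at least 1.5-fold below, where 19.9% and 4.68% of genes were (18.7% and 4.14% at 1000 UMIs or more). Klf4 had a ratio of 2.97 (95% interval 2.76 to 3.2), above that of 99% of all genes compared, Thbd 2.1 (1.78 to 2.46), S1pr1 1.83 (1.68 to 1.99), Klf2 1.8 (1.72 to 1.89) and Klf6 1.64 (1.52 to 1.77). Nos3 differed least, at 1.08 (0.942 to 1.25). The median over all genes in this comparison was a ratio of 1.15, so genes as a whole leaned to the higher side.

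In liver, 5 of the 8 genes were again at least 1.5-fold above iSuRe-Cre and 0 at least 1.5-fold below, where 13.3% and 11.3% of genes were (9.53% and 6.53% at 1000 UMIs or more). Klf4 again led, at 3.3 (95% interval 2.87 to 3.79), followed by S1pr1 at 1.78 (1.47 to 2.14), Klf2 at 1.76 (1.61 to 1.93), Nos3 at 1.76 (1.37 to 2.24) and Thbd at 1.71 (1.31 to 2.19). Edn1 and Piezo1, at 1.16 (0.928 to 1.45) and 1.14 (0.891 to 1.43), had intervals that held 1. Over the 14 alternatives the Klf4 ratio ran from 1.7 to 4.33, so its size was not fixed. Without the sinusoidal class cells, 2 of the 8 genes were past the limit in place of 5, and without the Cdh5 criterion 1 was. Nos3 turned to 0.845 with HTODemux calls and Thbd to 0.983 without the Cdh5 criterion. In the sinusoidal class alone, with 8 against 479 cells, Klf2 turned to 0.697 and S1pr1 to 0.98.

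Across tissues, Edn1 was the gene that differed most. It was at 171 CPM (141 to 207) in control liver, 113 CPM (106 to 120.2) in iSuRe-Cre liver and 132 CPM (106 to 162) in iSuRe-HadCre liver, which was 6.75, 5.25 and 4.35 times its level in heart. Over the alternatives these ratios ran from 3.09 to 7.98, from 3.19 to 10.4 and from 2.15 to 67.5, and the heart levels overlapped free RNA, so the side of 1 held in each of them but the size was not fixed. Edn1 was the 1 gene of the 8 at least 1.5-fold higher in liver in each allele, where 19.2% (control), 15.6% (iSuRe-Cre) and 11.3% (iSuRe-HadCre) of genes were, or 11.8%, 13.2% and 6.4% of those with at least 1000 UMIs. The lower side held 2 of the 8 genes in each allele, Klf2 and Klf6 in control and Klf6 and S1pr1 in both iSuRe groups, where 10.4% (control), 8.81% (iSuRe-Cre) and 13.4% (iSuRe-HadCre) of genes were, or 7.23%, 9.09% and 8.55% at 1000 UMIs or more. Klf6 was lower in liver in all of them, at 0.523 (0.427 to 0.636), 0.623 (0.579 to 0.671) and 0.523 (0.43 to 0.631) times its heart level. Over the alternatives the number of genes past the lower limit ran from 1 to 5 in control, from 0 (without the sinusoidal class cells) to 4 in iSuRe-Cre and from 1 to 7 in iSuRe-HadCre, with the highest count of each reached without the Cdh5 criterion. Klf2 stood at 0.54 times heart in control liver and at 0.885 and 0.864 times in iSuRe-Cre and iSuRe-HadCre liver. Over the alternatives these ratios ran from 0.32 to 0.67, from 0.569 to 1.26 and from 0.271 to 1.13. The ranges overlapped, and the side of 1 was not fixed in the iSuRe groups. Nos3 was at 101 CPM in control, 64 CPM in iSuRe-Cre and 113 CPM in iSuRe-HadCre liver, and Thbd at 103, 60.1 and 102 CPM.

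Inside the marker classes the genes did not move as 1 block. In heart the difference in Klf2 was largest in the capillary class, where it was at 1305 CPM in control (210 cells), 443 CPM in iSuRe-Cre (349 cells) and 782 CPM in iSuRe-HadCre (241 cells), ratios to control of 0.339 and 0.599. In cells of no class the ratios were 0.728 and 0.984. In the arterial class Klf2 was at 1251 CPM in control (24 cells), 1224 CPM in iSuRe-Cre (12 cells) and 1882 CPM in iSuRe-HadCre (30 cells), with ratios of 0.978 (95% interval 0.818 to 1.17) and 1.5 (1.3 to 1.74). Control heart therefore had like levels in capillary and arterial class cells, whereas in both iSuRe groups the arterial class was the higher. Klf4 had the same shape, at 133 CPM in capillary against 498 CPM in arterial class cells of iSuRe-Cre heart and at 374 against 993 CPM in iSuRe-HadCre heart. In control heart Klf4 was at 364 and 437 CPM.

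In liver the sinusoidal class of iSuRe-Cre had the lowest Klf2 and Klf4 of its group, at 304 and 62.3 CPM. Both values lay below the free RNA levels of 329 CPM for Klf2 and 97.5 CPM for Klf4. A share of free RNA is not the amount of free RNA in a cell. Klf2 in barcodes outside the ECs ran from 53.8 CPM (erythroid) to 309 CPM (lymphocyte genes). Klf4 ran there from 6.19 CPM (erythroid) to 179.7 CPM (fibroblast genes). The part of free RNA in the sinusoidal class was not tested. The venous class of iSuRe-Cre liver (146 cells) had Klf2 at 755 CPM and its arterial class (25 cells) at 732 CPM. In the venous class the Klf2 ratio to control (12 cells, 933 CPM) was 0.809 (95% interval 0.674 to 0.979) for iSuRe-Cre and 1.5023 (1.2 to 1.89) for iSuRe-HadCre (16 cells, 1401 CPM). In the other shared classes the iSuRe-Cre value was above control. It was 732 against 324 CPM in the arterial class, 509 against 450 CPM in the capillary class and 523 against 279 CPM in cells of no class. The capillary intervals overlapped (456 to 566 and 342 to 580). In iSuRe-HadCre liver the capillary class (23 cells) was at 265 CPM. That value and, in control liver, the 324 CPM of the arterial class and the 279 CPM of cells in no class also lay below free RNA. No direction or fold is therefore read from comparisons that use them. These classes hold 12 to 15 control cells each, so a few cells can set a value. Klf4 was lower in iSuRe-Cre than in control within the venous class, at 0.534 (0.387 to 0.752), and higher than control within the arterial class, at 1.55 (1.04 to 2.38).

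Edn1 was lowest in capillary and sinusoidal class cells, and in the heart capillary class it was below its 17.3 CPM in free RNA. In heart it was at 11.3 CPM in capillary and 154 CPM in arterial class cells of control, 4.69 and 162 CPM in iSuRe-Cre, and 4.4 and 220 CPM in iSuRe-HadCre. In liver the venous class held 481 CPM in control, 367 CPM in iSuRe-Cre and 265 CPM in iSuRe-HadCre, while sinusoidal class cells of iSuRe-Cre held 26 CPM. The arterial class of liver held 77.4, 218 and 124 CPM, which in control lay below the 133 CPM of cells in no class. Liver also held more venous class cells, 12, 146 and 16 in its groups against 1, 15 and 3 in heart, and their part in the higher Edn1 of liver was not tested. A class is a range of detected marker genes and not a cell type, and deeper cells detect more genes.

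**Figure D3:**
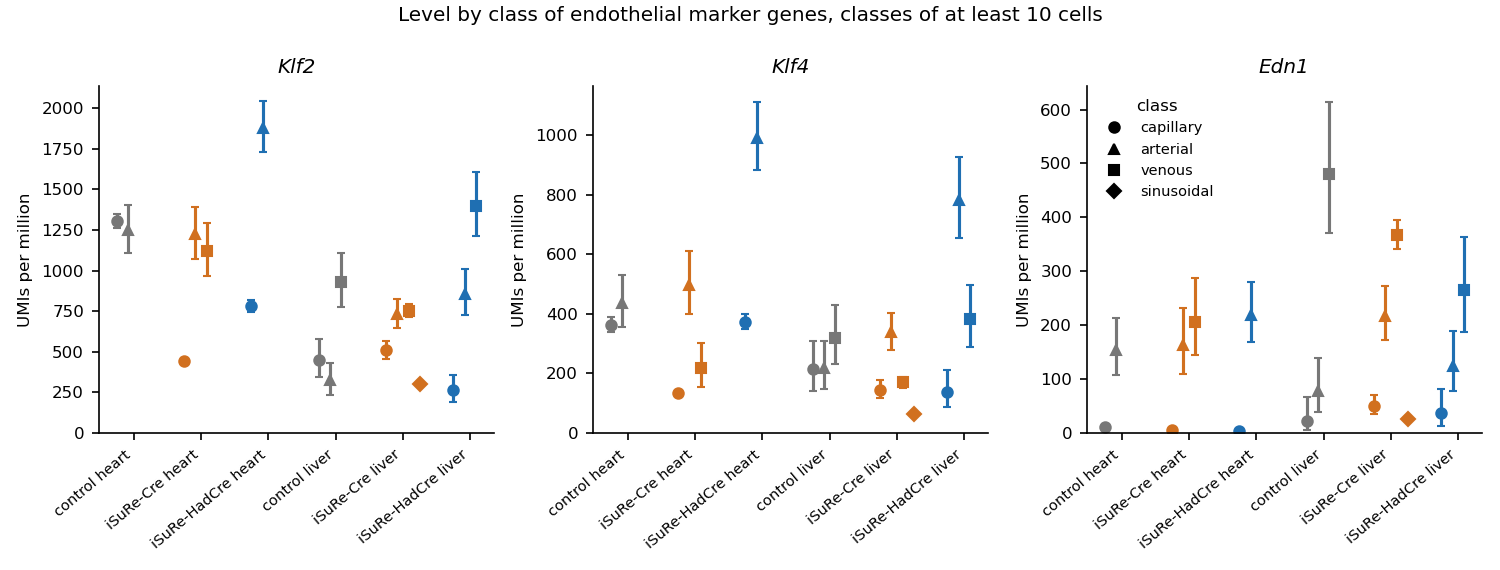
Level of Klf2, Klf4 and Edn1 (y axes, CPM, from 0) by marker class within each hashtag group (x axis), for classes of at least 10 cells, with exact 95% Poisson intervals. Capillary class circles of Klf2 lie at 1305, 443 and 782 in heart, and Edn1 is highest in the liver in the venous squares, at 481, 367 and 265, and low in capillary circles and in the sinusoidal diamond at 26.

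From cell to cell, Klf2 and Klf4 went together within every group, with Spearman's rho of 0.446 to 0.588 over 54 to 858 cells, as shares of the same cell's UMIs. Klf2 and Thbd had rho of 0.147 to 0.446, Klf2 and Nos3 of -0.00148 to 0.308, and Klf2 and Notch1 of -0.132 to 0.273, which at these sparse counts is no finding. A Klf2 and a Klf4 UMI were both present in 70.9%, 56.8% and 69.8% of the heart cells of the control and the 2 alleles, and in 55.6%, 35.5% and 59.2% of liver cells. Klf4 without Klf2 was seen in 2.63% to 7.41% of cells.

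Klf2 also went with the immediate early genes, which enzymatic digestion is known to raise, with rho of 0.274 to 0.491 across the cells of a group. Their list of 15 genes, with Fos, Jun and Ier2, summed to 5907 CPM (control), 4805 CPM (iSuRe-Cre) and 6569 CPM (iSuRe-HadCre) in heart and to 3497, 3756 and 4466 CPM in liver. In iSuRe-Cre heart 3 of the 15 genes were at least 1.5-fold lower than control, Zfp36 (0.551), Dusp1 (0.647) and Btg2 (0.648), and 0 were higher. The list's median log2 ratio was -0.33 against -0.05 over all genes, with 10 CPM added. In iSuRe-HadCre heart 3 were higher, the heat shock genes Hspa1b (3.92) and Hspa1a (2.81) and the nuclear receptor Nr4a1 (1.66), and 1 was lower. In liver 8 of the 15 were higher than control in iSuRe-HadCre and 0 lower, and 2 were higher and 1 lower in iSuRe-Cre. The shares of all genes were 13.5% higher and 13.3% lower for the former and 12.8% and 15.6% for the latter, so the 2 higher genes of iSuRe-Cre liver were at the background share. In heart these shares were 7.76% and 9.19% for iSuRe-Cre and 11.7% and 2.66% for iSuRe-HadCre.

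When the cells of each group were ranked by their share of immediate early UMIs and cut into 3 equal parts, Klf2 in control heart was at 600.2 CPM in the lowest part, 1188 in the middle and 2271 in the highest. The same parts of iSuRe-Cre heart held 349, 371 and 888 CPM, and those of iSuRe-HadCre heart 519.5, 870 and 1427 CPM. Klf2 was lower in iSuRe-Cre than in control heart in each part, and the gap was smaller in the lowest part. In the lowest part of the liver groups it was at 246 CPM in control (18 cells), 276 CPM in iSuRe-Cre and 492 CPM in iSuRe-HadCre. The control and iSuRe-Cre values lay below the 329 CPM of free RNA, so no order is read from them. Among cells below the median immediate early share of all selected ECs, the heart ratios of Klf2 to control were 0.575 (iSuRe-Cre) and 0.863 (iSuRe-HadCre), and 3 in place of 5 of the 8 genes were at least 1.5-fold lower in iSuRe-Cre heart. S1pr1 moved less along this ranking in control heart, from 269 CPM in the lowest to 353 CPM in the highest part. The part of dissociation in the Klf2 differences was not tested.

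**Figure D4:**
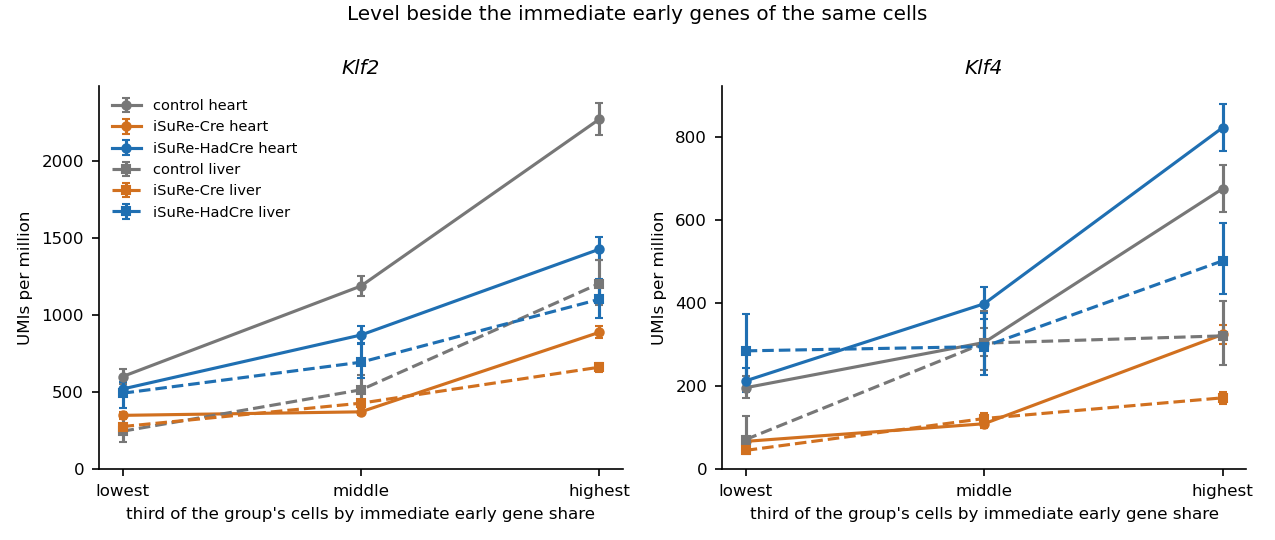
Level of Klf2 and Klf4 (y axes, CPM, from 0) in the cells of each group with the lowest, middle and highest share of immediate early UMIs (x axis), solid lines for heart and dashed lines for liver, with exact 95% Poisson intervals. Klf2 in control heart runs from 600.2 to 2271, and in iSuRe-Cre heart from 349 to 888.

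Upstream of the KLF genes, 22 flow sensors and transducers were listed, and 21 had enough UMIs to compare. In iSuRe-Cre heart 2 were at least 1.5-fold higher than control and 1 lower, in iSuRe-HadCre heart 5 were higher and 0 lower, in iSuRe-Cre liver 2 were higher and 5 lower, and in iSuRe-HadCre liver 1 was higher and 2 lower. Of all genes compared, 7.76% were higher and 9.19% lower in iSuRe-Cre heart. In heart with iSuRe-HadCre these shares were 11.7% and 2.66%. They were 12.8% and 15.6% for iSuRe-Cre liver, and 13.5% and 13.3% for iSuRe-HadCre liver. The 2 higher and 1 lower of 21 genes in iSuRe-Cre heart were near those shares. Kdr, the VEGF receptor of the junctional sensor, was higher than control in all 4 groups, at 2.61 and 4.51 times in iSuRe-Cre and iSuRe-HadCre heart and 3.34 and 1.78 times in iSuRe-Cre and iSuRe-HadCre liver. Flt4, the VEGF-C receptor of the same complex, was at 1.73 and 1.57 times in the heart groups and 4.43 times in iSuRe-Cre liver, and its ratio in iSuRe-HadCre liver was 0.882 (0.506 to 1.54). Flt4 also stands on the lymphatic marker list, whose sum was highest in iSuRe-Cre in both tissues, as given below. Pecam1, which passes force to that complex, was at 844 CPM in the control, 586 CPM in the iSuRe-Cre and 860 CPM in the iSuRe-HadCre heart and at 872, 485 and 858 CPM in liver. The kinase steps between the sensors and MEF2 were within 1.5-fold of control in heart, with Map2k5 at 50.5, 46.5 and 69.3 CPM and Mapk7, the gene of ERK5, at 14.2, 10.6 and 11 CPM. Mef2c was at 531, 437 and 646 CPM.

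Of 17 other genes that laminar flow or KLF2 is known to raise, 15 could be compared. In iSuRe-Cre heart 8 were at least 1.5-fold lower than control and 2 higher, with a median log2 ratio of -0.57 against -0.05 over all genes. The smallest ratios belonged to Gja5 (0.135, 95% interval 0.08 to 0.222) and Gja4 (0.358, 0.308 to 0.416), the connexins of arterial ECs, which also stand on the arterial marker list, and the largest to Procr (2.94), the endothelial protein C receptor. In iSuRe-HadCre heart 4 were higher and 1 lower, with Ptgis (2.16), the prostacyclin synthase, and Hmox1 (0.455), the haem oxygenase, at the ends. In iSuRe-Cre liver 9 were lower and 2 higher (median log2 ratio -0.89), from Ptgis (0.0982) to Tfpi (2.91), and in iSuRe-HadCre liver 2 were lower and 3 higher (-0.02). Of all genes, 9.19% were that much lower and 7.76% higher for iSuRe-Cre heart, 2.66% and 11.7% for iSuRe-HadCre heart, 15.6% and 12.8% for iSuRe-Cre liver and 13.3% and 13.5% for iSuRe-HadCre liver, and the counts of the last were near its shares. Ptgis was at 81.7 CPM in control liver and between 4.62 and 13.1 CPM in the other groups. Control liver, on which all liver ratios to control rest, also stood apart on the 6 endocardial markers. They summed to 862 CPM there, led by Adgrg6 at 279 CPM and with Npr3 at 173 CPM, against 141 CPM in iSuRe-Cre liver, 301.6 CPM in iSuRe-HadCre liver and 182 to 260.1 CPM in heart, and their part in the liver ratios was not tested.

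Of 11 genes that flow or KLF2 is known to lower, 9 could be compared. In iSuRe-Cre heart 3 were at least 1.5-fold higher than control, Ccl2 (8.39), Selp (3.1) and Sele (2.27), a chemokine and a pair of adhesion selectins, and 1 was lower, Bmp4 (0.619), where 7.76% and 9.19% of all genes were. In iSuRe-HadCre heart 0 were higher and 3 lower, Ccl2 (0.402, 0.141 to 1.02), Vcam1 (0.494) and Bmp4 (0.572), against 11.7% and 2.66% of all genes. In iSuRe-Cre liver 1 was higher, Ccl2, which had no UMI in control liver and 16.8 CPM there, and 2 were lower, Ccn2 (0.443) and Ccn1 (0.538), against 12.8% and 15.6%. In iSuRe-HadCre liver 2 were higher, Ccl2 at 23.4 CPM with no UMI in control liver, and Angpt2 (1.71, 0.682 to 4.67), and 4 lower, Ccn2 (0.433), Selp (0.468), Ccn1 (0.619) and Vcam1 (0.63), where 13.5% and 13.3% of all genes were. Selp also stands on the venous marker list, and iSuRe-Cre heart held more venous class cells (15) than control heart (1).

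Among 14 other KLF genes, 7 could be compared. In iSuRe-Cre heart 4 were at least 1.5-fold lower than control, Klf9 (0.55), Klf11 (0.561), Klf3 (0.593) and Klf13 (0.644), and 0 were higher. In iSuRe-HadCre heart 1 was higher, Klf12 (1.62), and 0 lower. In iSuRe-Cre liver 2 were lower, Klf11 (0.45) and Klf12 (0.599), and in iSuRe-HadCre liver 0 were past the limit. The lower side held 9.19% of all genes in the first of these comparisons and 15.6% in iSuRe-Cre liver, and nothing is read from 2 of 7 genes beside that share. The higher side held 7.76% of all genes in iSuRe-Cre heart and 12.8% in iSuRe-Cre liver. The shares were 11.7% higher and 2.66% lower for iSuRe-HadCre heart and 13.5% and 13.3% for iSuRe-HadCre liver, and nothing is read from counts of 0 or 1 of 7 genes.

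Over the 6 group levels, on the log2(CPM + 10) scale, the genes most like Klf2 among 7117 others with at least 500 UMIs were Fmnl3 (Pearson's r 0.981), Wdfy1 (0.976), Ceacam1 (0.97), Unc5b (0.969) and Tcf3 (0.968). Unc5b, a netrin receptor of arterial and sprouting ECs, was at 83.8 (control), 24.1 (iSuRe-Cre) and 71.5 CPM (iSuRe-HadCre) in heart and at 36.9, 11.8 and 42.5 CPM in liver. Of the 8 genes, Piezo1 was most like Klf2 (0.961), followed by Klf4 (0.885), S1pr1 (0.88), Klf6 (0.829), Thbd (0.661) and Nos3 (0.514), and Edn1 was unlike it (-0.328). The immediate early gene Ier2 reached 0.931. With 6 points that share 1 library, these values are descriptions only.

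Genes of other cell types also differed between the groups. The 8 hepatocyte genes summed to 137 (control), 847 (iSuRe-Cre) and 109 CPM (iSuRe-HadCre) in heart and to 111, 707 and 84.9 CPM in liver, with Afp at 277 CPM the most abundant in iSuRe-Cre heart, and to 5677 CPM in free RNA. Macrophage genes summed to 104, 69.1 and 91.2 CPM in heart and to 20.8, 342 and 93.7 CPM in liver, where Lyz2 led in iSuRe-Cre at 144 CPM and C1qa, C1qc, Csf1r and Adgre1 were at 0 in control. Lymphatic genes summed to 38.6, 189.6 and 59.6 CPM in heart, with Ccl21a at 111 CPM in iSuRe-Cre, and to 64.1, 397 and 68.8 CPM in liver, where Ccl21a was at 139 CPM in iSuRe-Cre and at 0 in the other groups. Their part in the results was not tested. Mural genes summed to 117, 142 and 43.8 CPM in heart. Lymphocyte genes summed to 84.9 CPM in control liver, 18.3 CPM in iSuRe-Cre liver and 1.98 to 2.9 CPM in heart, and all 7 were at 0 in iSuRe-HadCre liver. Fibroblast genes summed to 405 to 760 CPM, cardiomyocyte genes to 40.1 to 62.8 CPM and erythroid genes to 9.63 to 26.7 CPM over the 6 groups. The iSuRe-Cre groups therefore carried more hepatocyte RNA in both tissues. When barcodes with at least 3 detected genes of the macrophage, fibroblast, mural, erythroid, lymphocyte or cardiomyocyte list were left out, Klf2 in iSuRe-Cre heart was at 0.37 times control. Hepatocyte genes were not used to leave out barcodes, and the part of hepatocyte and other free RNA was not tested.

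Outside the ECs the levels depended on the kind of barcode. Among 104 barcodes with erythroid genes and no Cdh5 UMI, Klf2 was at 53.8 CPM and Klf4 at 6.19 CPM. In the 2466 barcodes with fibroblast genes Klf2 was at 190.1 CPM, under its 329 CPM in free RNA, and Klf4 at 179.7 CPM, above its 97.5 CPM in free RNA. Nos3, at 3.62 CPM, Edn1, at 3.3 CPM, Thbd, at 7.39 CPM, and S1pr1, at 11 CPM, were all under their free RNA levels in these barcodes. Klf6 was at 207 CPM in the 23 hepatocyte barcodes, above its level in all liver EC groups. S1pr1 was at 46.1 CPM in the 34 barcodes with lymphocyte genes, below its 54.2 CPM in free RNA. Klf2 was below its free RNA level in each kind of barcode outside the ECs. Every group of ECs was above free RNA for all 8 genes by its value, but the intervals overlapped those of free RNA for Edn1 in all 3 heart groups, for Thbd in iSuRe-Cre heart, and for Klf4 and Klf6 in iSuRe-Cre liver. The 5585 ECs without a hashtag, which belong to no group, had Klf2 at 630 CPM (621 to 638) and Klf4 at 234 CPM, within the range of the 6 groups.

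Because depth differed, shares of cells with a UMI were also read after thinning every cell to 2000 UMIs. A Klf2 UMI was then left in 74% of control (95% interval 68.2 to 79.3), 49.3% of iSuRe-Cre (44.6 to 54.1) and 67.9% of iSuRe-HadCre heart cells, against 90.9%, 86.2% and 89.7% before thinning. In liver the thinned shares were 47.4%, 45.9% and 58.2%, and before thinning 72.2%, 76.3% and 84.2%. The erythroid barcodes had 27% after thinning and 53.8% before, at a median of 7262.5 UMIs. Other barcodes outside the ECs had more, with thinned Klf2 shares of 37.4% where macrophage genes and 42.2% where lymphocyte genes were detected, and iSuRe-Cre liver, control liver (33.6 to 61.4) and iSuRe-Cre heart lay close to the latter. Thinned Klf4 shares were 42.8%, 22% and 48.7% in heart and 28.7%, 15.8% and 37.7% in liver, against 4.73% in erythroid and 23.6% in fibroblast gene barcodes, the last above both iSuRe-Cre groups.

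**Figure D5:**
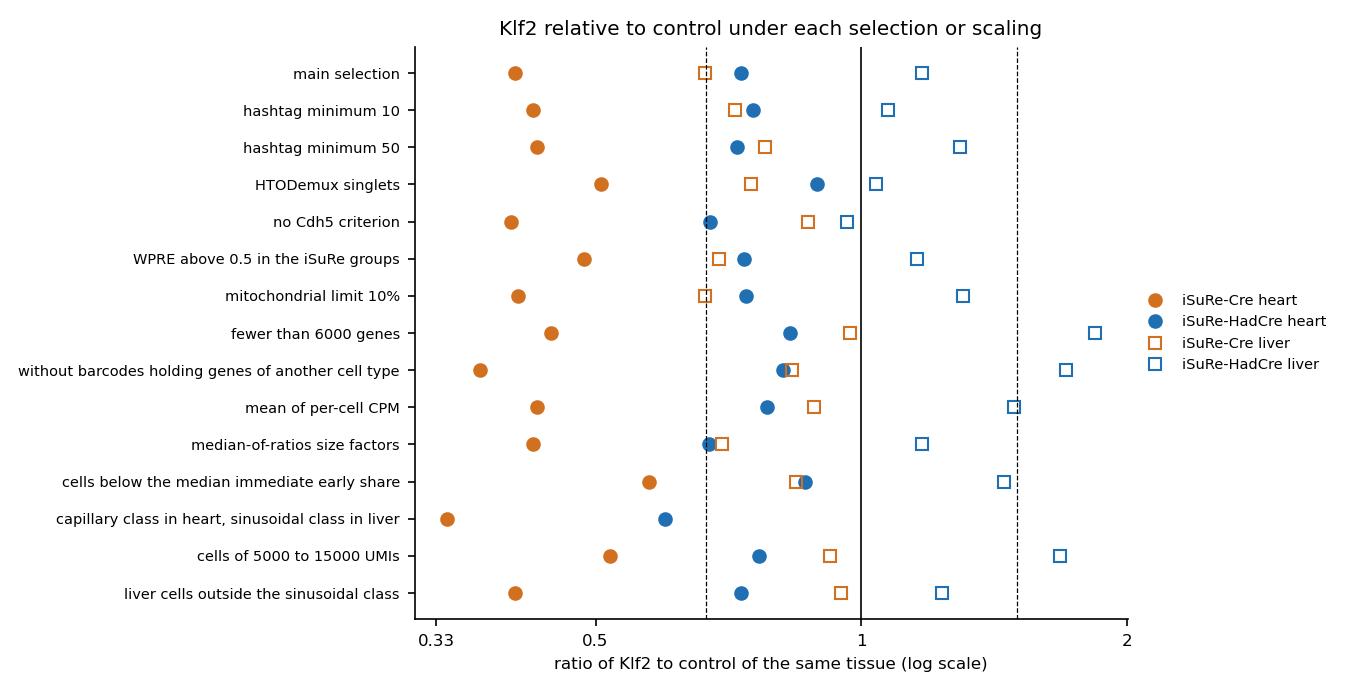
Ratio of Klf2 to control of the same tissue (x axis, log scale) under each cell selection or scaling (rows), filled circles for heart and open squares for liver, with dashed lines at 1.5-fold. iSuRe-Cre heart stays between 0.339 and 0.575, while iSuRe-Cre liver runs from 0.664 to 0.971 and iSuRe-HadCre liver from 0.963 to 1.84, and the row for sinusoidal class cells has no liver value.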

How the data were processed

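Heart and liver cells of 6 hashtag groups had been sequenced as 1 pooled 10x library. The deposited UMI counts per gene and barcode were made by the authors with Cell Ranger 7.1.0 against GRCm38 with transgene sequences added, and were neither filtered for cells nor normalized. The matrix held 2755147 barcodes, 8 hashtag features and 5 multiplexing features. Barcodes were kept with 2000 to 75000 gene UMIs, over 500 genes, under 5% mitochondrial and under 5% haemoglobin UMIs, and ln(1 + 10000 × Cdh5 share) above 0.9, which left 7704, of which 1988 carried 1 hashtag. No doublet caller was run beyond removing barcodes with several hashtags. With 1 library, no barcode is shared between libraries.

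UMIs were summed per group (Python 3.11.15, scipy 1.17.1). Exact 95% Poisson, conditional (ratios) and Clopper-Pearson (shares) intervals cover counting error only. For a class with 0 cells, 3 counts of the total were taken as the limit. Ratios were compared for 9742 genes with at least 200 UMIs over the 6 groups, and 1.5-fold was the limit used. The calculation of ratios and intervals was checked on simulated counts. Besides the 8 genes, the text names genes of listed pathways and markers, those at the ends of a list's ratios, and the 5 genes most correlated with Klf2; genes named elsewhere were chosen after their values were seen. The members, lists and hashtag minimums were chosen with earlier results of these data known. Of the alternatives, 12 were planned and 3 were added after seeing the data. HTODemux was run in Seurat 5.3.0 (R 4.3.3).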

Additional observations from a re-analysis of the deposited data

Results flagged for a closer look

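Klf2 stood on opposite sides of control in the iSuRe-HadCre groups of the tissues. It was at 0.731 times control in heart (95% interval 0.696 to 0.767, counting error only) and at 1.17 times control in liver (1.03 to 1.33). With 1 sample per group the difference between tissues was not tested. The liver ratio rests on 54 control and 76 iSuRe-HadCre cells and was 0.963 without the Cdh5 criterion.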

How the results depend on the processing

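Of 984 ratios recomputed for the 8 genes under the alternatives, 671 moved by less than the counting interval, 6 called ratios changed side of 1 and the rest moved by more. Klf2 in iSuRe-Cre heart (0.405 times control) was at 0.425 and 0.429 with a hashtag minimum of 10 and 50 UMIs, 0.507 with HTODemux singlets, 0.485 with WPRE required, 0.445 in cells of fewer than 6000 genes, 0.37 without barcodes holding genes of another cell type (hepatocyte genes were not used), 0.429 as a mean of cells, 0.425 with size factors, 0.575 below the median immediate early share, 0.339 in the capillary class and 0.519 in cells of 5000 to 15000 UMIs. In iSuRe-HadCre heart (0.731) it was at 0.891 with HTODemux, 0.673 without the Cdh5 criterion, 0.831 under 6000 genes, 0.815 without such barcodes, 0.782 as a mean of cells, 0.672 with size factors, 0.863 at low immediate early share and 0.599 in the capillary class. In iSuRe-Cre liver (0.664) it was at 0.777 with a minimum of 50, 0.749 with HTODemux, 0.87 without the Cdh5 criterion, 0.971 under 6000 genes, 0.834 without such barcodes, 0.884 as a mean of cells, 0.842 at low immediate early share, 0.922 at 5000 to 15000 UMIs and 0.948 outside the sinusoidal class. In iSuRe-HadCre liver (1.17) it was at 0.963 without the Cdh5 criterion, 1.84 under 6000 genes, 1.71 without such barcodes, 1.49 as a mean of cells, 1.45 at low immediate early share and 1.68 at 5000 to 15000 UMIs.

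Genes at least 1.5-fold lower in iSuRe-Cre heart than control went from 5 to 3 at low immediate early share, and in liver from 6 to 2 (minimum of 50), 3 (HTODemux), 2 (no Cdh5 criterion), 3 (without such barcodes), 3 (5000 to 15000 UMIs) and 1 (outside the sinusoidal class). Genes higher in iSuRe-HadCre than iSuRe-Cre went from 5 to 3 in heart at low immediate early share, and in liver from 5 to 3 (HTODemux), 1 (no Cdh5 criterion) and 2 (outside the sinusoidal class). The ratios past 1.5-fold that changed side were Edn1 in iSuRe-Cre liver against control (1.27 with HTODemux, 1.31 outside the sinusoidal class), and, in iSuRe-HadCre against iSuRe-Cre liver, Klf2 (0.697) and S1pr1 (0.98) in the sinusoidal class of 8 against 479 cells, Nos3 (0.845, HTODemux) and Thbd (0.983, no Cdh5 criterion). Smaller ratios also did, such as Klf6 in iSuRe-Cre liver (1.34, minimum of 50) and Klf4 in iSuRe-HadCre liver (0.983, no Cdh5 criterion) against control. The cause was not tested. The sinusoidal class gave no value against control liver, which had 0 such cells. No paired analysis was possible because each group is 1 sample.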
